A study of Mus musculus with 34 samples.

Results

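BTBS00065, a compound of the Maybridge collection held in library well Maybridge_26_F05, was compared with its DMSO controls in N2A cells, and the comparison used 4 of the 34 RNA-seq libraries of the series. The members were chosen by their labels alone: 1 library of cells given BTBS00065 at 2.5 µM for 24 h, and 3 libraries of cells given DMSO only for the same time, labelled A, B and C. N2A (Neuro-2A) is a mouse neuroblastoma line, and DMSO, the solvent of the compounds, was present at 0.4% in every group. The series measured polyA+ RNA after treatment with 27 compounds that had come out of a screen with luciferase reporters of the Mef2d microexon. BTBS00065 was taken from that screen as an activator with an unknown target, and the comparison asks how far its effect on the endogenous transcriptome extends. With 1 treated library there was no replicate check of the treatment, so every call below describes these 4 libraries.

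Microexons are very short exons, many of which are included mainly in neurons, where the splicing regulator Srrm4 promotes their use. They often keep the reading frame, so that their inclusion adds a few amino acids to a protein. The study lists BTBS00065 as an iodinated deoxyuridine, a thymidine analogue. Such analogues are phosphorylated in the cell by thymidine kinase and can be built into DNA in place of thymidine.

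Inclusion was given as percent spliced in (PSI), the share of transcripts that hold an exon, retain an intron or use a splice site. Over exon junctions, 49759684 reads were counted in the BTBS00065 library, and 75974872, 66599504 and 37425640 in DMSO libraries A, B and C. The median SD of PSI among the DMSO libraries was 0.75 for microexons, here exons of up to 27 nt, and 0.0 for longer cassette exons, with 95th percentiles of 5.64 and 3.24. These cover all exons tested, and the cassette exons had a median DMSO PSI of 100. For exons with a control mean of 5 to 95 PSI, 1 DMSO library differed from the other 2 by a median of 2.5 to 3.125 PSI in microexons. In cassette exons this was 2.905 to 3.188 PSI. BTBS00065 differed from DMSO by medians of 3.583 and 3.58 PSI. An event was called with a difference of at least 10 PSI from the DMSO mean and a posterior probability of a difference above 0.95. That probability came from the inclusion and exclusion reads and covers counting error only. To measure how often the same limits make calls without treatment, the DMSO libraries were compared 1 against the other 2. With 2 controls an event was tested where at least 1 of them passed the filters, whereas with all 3 controls at least 2 had to pass.

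Of the 21 called microexons, 16 were found at a single place in the GENCODE vM21 annotation, and 14 of these are coding in an annotated transcript. The sequences below show the spliced context of 5 coding microexons that were called more included, of 3 that were called less included, and of the Mef2d microexon on which the screen was built. The called ones were picked because they stayed called in at least 7 of 8 other settings of the analysis. Capitals mark the microexon, and lower case marks the last 15 bases of the exon before it and the first 15 of the exon after it in the named transcript, 5′ to 3′ on the gene's strand. Positions refer to GRCm38.
Slit2 at chr5:48220967-48220990, plus strand: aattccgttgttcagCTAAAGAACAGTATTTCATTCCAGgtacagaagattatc
Fbxo25 at chr8:13938922-13938948, plus strand: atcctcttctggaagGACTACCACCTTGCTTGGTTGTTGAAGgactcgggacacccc
Rapgef6 at chr11:54651749-54651763, plus strand: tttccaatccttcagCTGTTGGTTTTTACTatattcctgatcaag
Incenp at chr19:9883192-9883203, minus strand: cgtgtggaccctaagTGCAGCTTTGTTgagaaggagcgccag
Mark3 at chr12:111651958-111651984, plus strand: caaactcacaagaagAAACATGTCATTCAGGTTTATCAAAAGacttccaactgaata
Ank2 at chr3:126979256-126979267, minus strand: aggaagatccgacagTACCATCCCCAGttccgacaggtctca
Clasp2 at chr9:113878750-113878773, plus strand: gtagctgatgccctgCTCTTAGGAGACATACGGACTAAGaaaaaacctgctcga
Dnm2 at chr9:21490658-21490669, plus strand: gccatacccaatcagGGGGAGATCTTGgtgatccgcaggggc
Mef2d at chr3:88161781-88161801, plus strand: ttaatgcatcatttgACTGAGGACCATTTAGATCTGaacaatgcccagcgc

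Few microexons moved by the limit of 10 PSI with BTBS00065, and they moved in both directions. Of 614 microexons tested, 13 were called more included (2.12%) and 8 less included (1.30%). The same limits called 10, 9 and 7 more included and 9, 8 and 8 less included when DMSO A, B and C were each compared with the other 2. The microexons tested there numbered 635, 639 and 589. Those comparisons had 2 controls each, and with 2 controls BTBS00065 had 13 to 16 microexons called more included, above all 3, and 7 to 9 less included, within 1 of them. Against the 30 libraries of the other compounds, the 13 microexons called higher were fewer than in 20 libraries and more than in 10, in which the count ran from 0 to 77 with a median of 46. Including smaller differences, more microexons were higher than lower. Of 214 microexons with a DMSO mean of 5 to 95 PSI, 127 were higher and 87 lower, that is 59.3% higher with a median difference of 1.30 PSI. Between DMSO libraries the share that was higher was 51.1%, 45.3% and 49.3%. In the 20 compound libraries with more microexons called higher, which had 28 to 77 of them, this share was 65.07% to 81.82%. The 10 with fewer had 0 to 9 called higher and a share of 13.24% to 36.19%. In both measures BTBS00065 lay between these sets, and below every other compound library in which more microexons were higher than lower.

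The microexon of Slit2, a secreted guidance ligand of the Robo receptors, was included at 25.3, 21.3 and 25.8 PSI in DMSO A, B and C and at 40.6 PSI with BTBS00065, from 666 junction reads. In Fbxo25, the substrate receptor of a ubiquitin ligase, the values were 21.7, 18.1 and 27.1 PSI in DMSO and 38.1 PSI with BTBS00065. The treated library lay outside the range of the controls in these genes, as in all 13 microexons called more included. Slit2 and Fbxo25 were the only 2 of the 13 to stay called in all 8 other settings. In Rapgef6, an exchange factor for Rap GTPases, inclusion was 18.4, 24.4 and 21.2 PSI in DMSO and 35.7 PSI with the compound. In Incenp, the scaffold of the chromosomal passenger complex that guides chromosome segregation, it was 55.1, 54.6 and 48.8 PSI in DMSO and 65.1 PSI with the compound, from 881 reads. In Mark3, a kinase of microtubule-associated proteins, it was 29.1, 20.7 and 23.6 PSI in DMSO and 36.5 PSI with the compound. The differences in Rapgef6, Incenp and Mark3 were 14.4, 12.3 and 12.01 PSI, and each was lost as a call only where at least 15 PSI were asked for.

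Further members called more included rested on fewer controls or lost their call without 1 of the DMSO libraries. Lass6, the ceramide synthase now named Cers6, had 37.5, 37.0 and 24.6 PSI in DMSO and 45.7 PSI with BTBS00065. Dtnb, a dystrobrevin of the dystrophin complex, had 84.3, 76.6 and 67.3 PSI in DMSO and 88.2 PSI with the compound. In both genes, as in Mark3 above, the controls spanned more than the gap between the highest control and the treated library. The 14 nt exon of Ccnl1, a cyclin linked to splicing, had 9.08, 8.58 and 4.90 PSI in DMSO and 18.7 PSI with BTBS00065, and it was the only one of the 13 whose length is not a multiple of 3. The calls in Lass6, Dtnb and Ccnl1 were lost without DMSO replicate 3. Prdm10, Trpm2, E2f7 and Myo9b passed the filters in only 2 DMSO libraries. Their DMSO means were 39.0, 18.3, 8.12 and 67.6 PSI, against 57.4, 33.5, 19.7 and 77.7 PSI with the compound. The call in Myo9b held in 3 of 8 other settings, that in Prdm10 was lost without DMSO replicate 2 and that in Trpm2 without DMSO replicate 1. Prdm10 is a zinc finger transcription factor, Trpm2 a cation channel, E2f7 a repressor of the cell cycle and Myo9b a motor protein.

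Among the 8 microexons called less included, that of Ank2 stood lowest of all 31 compound libraries and the controls. Ank2 encodes ankyrin-B, which links membrane proteins to the spectrin skeleton, and its microexon had 62.9, 50.8 and 58.9 PSI in DMSO, 41.2 PSI with BTBS00065 and 42.7 to 83.7 PSI in the other 30 compound libraries. Iffo1, a member of the intermediate filament family, had 54.3, 48.0 and 66.8 PSI in DMSO and 38.1 PSI with the compound. Ank2 and Iffo1 were the 2 of the 8 that stayed called in all 8 other settings. Clasp2, which binds growing microtubule ends, had 82.9, 80.9 and 75.2 PSI in DMSO and 66.6 PSI with BTBS00065. Dnm2, the dynamin that pinches off endocytic vesicles, had 87.8, 86.2 and 89.2 PSI in DMSO and 76.8 PSI with the compound, from 425 reads. In Dnm2 the treated library lay below every control by more than the whole range of the controls, and 29 of the 30 other compound libraries were higher.

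Phf21a, a chromatin reader of the complex that removes methyl groups from histone H3, had 58.4, 60.1 and 60.4 PSI in DMSO and 48.7 PSI with BTBS00065, for an exon of 23 nt that shifts the frame. Git2, a regulator of Arf GTPases, had 76.2, 84.7 and 75.02 PSI in DMSO and 68.1 PSI with the compound. Cyth1, which activates Arf GTPases, had 87.9, 79.4 and 92.6 PSI in DMSO and 76.1 PSI with the compound. These 3 differences were between 10.49 and 10.89 PSI, close to the limit, and each call was lost without 1 or more of the DMSO libraries: replicate 2 for Phf21a and Git2, replicates 1 and 3 for Cyth1. Just under it lay Daam1 at -9.94 PSI and Abi2 at 9.93 PSI. Shank2, a postsynaptic scaffold, had 58.3, 64.1 and 37.6 PSI in DMSO and 39.6 PSI with the compound, so the treated value lay inside the range of the controls and the call held in 1 of 8 other settings. Of all called microexons, 12 of the 13 more included and 7 of the 8 less included had a length that is a multiple of 3, beside 74.4% of all microexons tested.

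**Figure D1:**
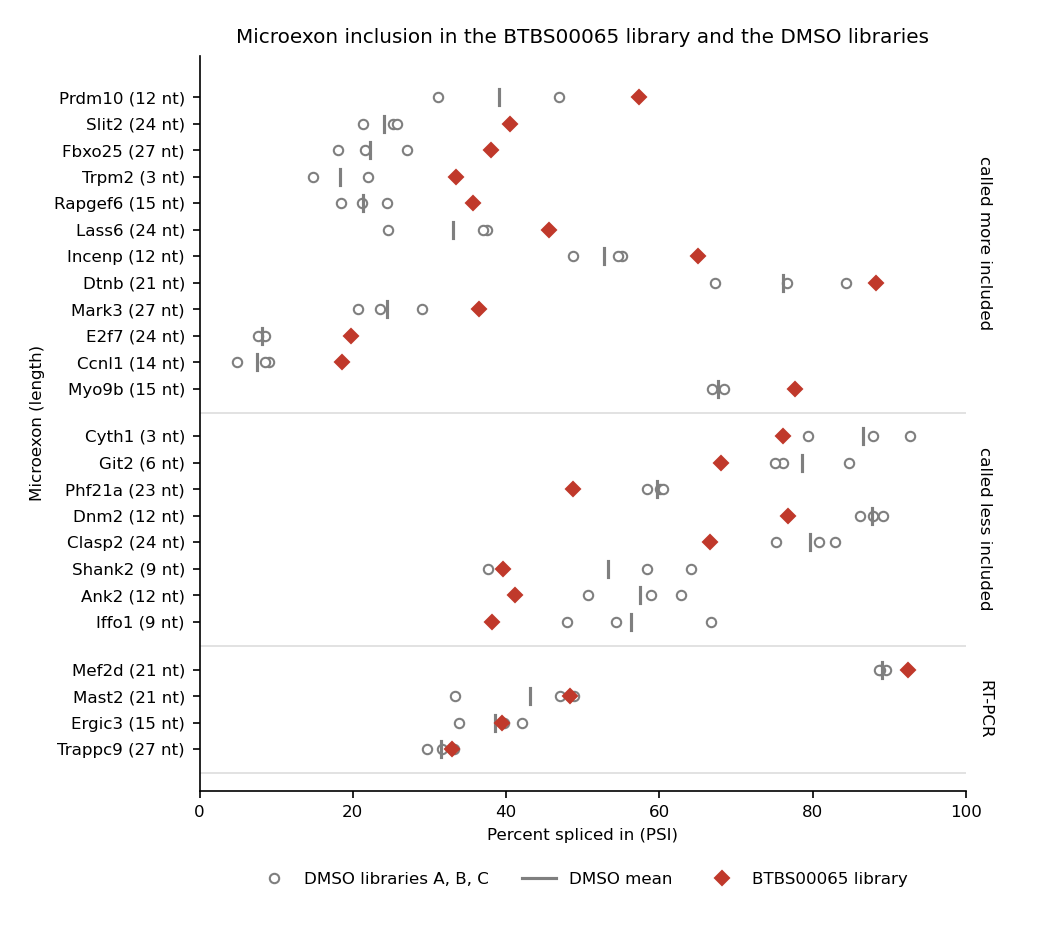
PSI of 20 of the 21 called microexons and of microexons in 4 genes that the study assayed by RT-PCR (Trappc9 for predicted inhibitors only), with each gene's exon length in nt. Open circles are the DMSO libraries (2 or 3 passed the filters), the bar is their mean and the red diamond the single BTBS00065 library; of the called microexons only Shank2 has its diamond inside the range of the circles, and Mef2d lies 3.39 PSI above its DMSO mean.

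The Mef2d microexon itself, which lies in a transcription factor of muscle and neurons, was already near full inclusion. It had 89.5, 88.7 and 88.7 PSI in DMSO and 92.4 PSI with BTBS00065, a difference of 3.39 PSI that lay outside the range of the controls but was too small to be called. In the other compound libraries it ran from 54.6 to 97.1 PSI, and 14 of the 30 were higher. The study also assayed microexons of Mast2, a microtubule-associated kinase, and Ergic3, a membrane protein of early secretion. For predicted inhibitors only, it assayed that of Trappc9, a subunit of a vesicle tethering complex. All 3 genes hold a microexon that was tested here. The DMSO means of Mast2, Ergic3 and Trappc9 were 43.1, 38.5 and 31.5 PSI, and with BTBS00065 they had 48.3, 39.4 and 32.98 PSI. All 3 treated values lay within the range of the controls. The study chose its Trappc9 microexon for relatively high inclusion in N2A cells. Whether the exon given here is that one is not known.

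Zdhhc20, Mgrn1 and, for predicted inhibitors only, Asph were assayed too. The sources used here do not give which exon. All their exons over 27 nt with a DMSO mean of 5 to 95 PSI were therefore taken, a rule chosen after their values were seen. The 48 nt exon of Asph, an aspartate hydroxylase, had 32.3, 20.9 and 25.7 PSI in DMSO and 37.1 PSI with BTBS00065, which was called, but the call was lost without DMSO replicate 2, at 15 PSI and at a posterior above 0.99. A second Asph exon of 45 nt differed by 0.73 PSI. The 36 nt exon of Zdhhc20, a palmitoyltransferase, had a DMSO mean of 33.9 PSI and 39.6 PSI with the compound, within the range of the controls. In Mgrn1, a ubiquitin ligase, the exon of 66 nt had 9.80 PSI on average in DMSO and 13.1 PSI with the compound, and that of 45 nt had 19.9 and 14.04 PSI, both outside the range of the controls and neither called.

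Longer cassette exons leaned toward inclusion. Of 57930 tested, 370 were called more included (0.639%) and 177 less included (0.306%). The comparisons between controls went the other way, with 240, 257 and 209 called more included and 266, 282 and 324 less included for DMSO A, B and C. With 2 controls BTBS00065 had 432 to 462 called more included and 206 to 218 less included. Of 4938 exons with a DMSO mean of 5 to 95 PSI, 3353 were higher and 1575 lower, which is 67.9% higher, with a median difference of 2.05 PSI. Between controls this share was 56.9%, 56.3% and 54.2%. In the 30 other compound libraries it ran from 33.01% to 67.57% with a median of 52.44%, so the BTBS00065 library had the highest share of the 31, while 5 of the 30 had a larger median difference. Its 177 exons called less included were the fewest as well, against 194 to 1487 in the others, whereas 13 of the 30 had more exons called more included. These libraries share the 3 controls, so the places in this order are a description. Of 285 exons called more included and outside the range of 3 passing controls, 42 were at their highest of all libraries. A call already selects for high values, and the count over all exons tested was not taken.

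**Figure D2:**
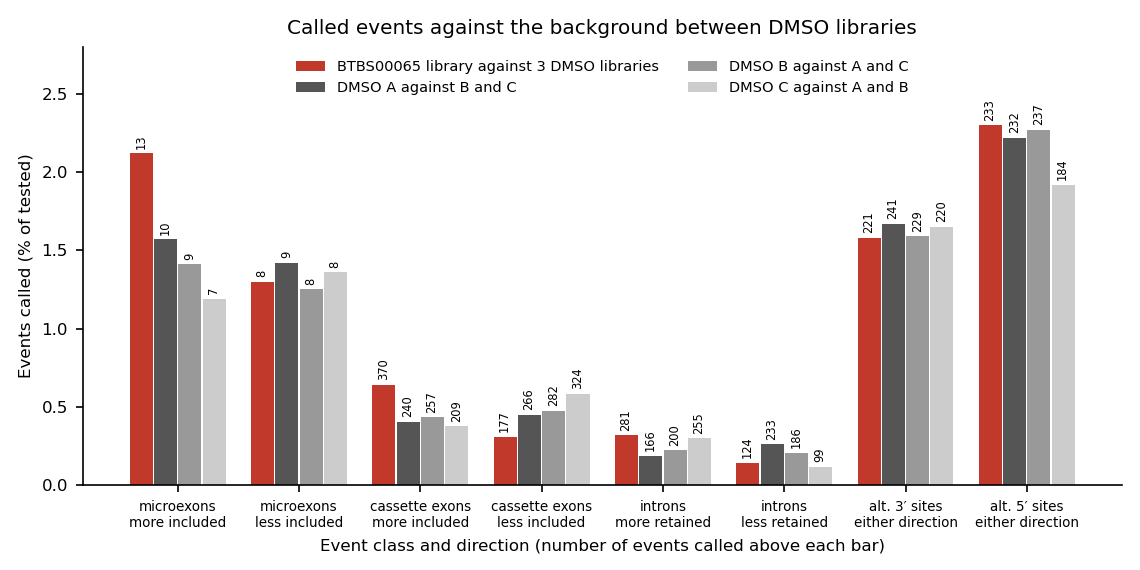
Events called in each class, as a percentage of the events tested, for the BTBS00065 library against 3 DMSO libraries (red) and for each DMSO library against the other 2 (greys), with the number called above each bar. The red bar stands apart from the greys for cassette exons, with 370 more included and 177 less included. The greys used 2 controls and the red bars 3; with 2 controls the BTBS00065 counts were 13 to 16 and 7 to 9 microexons, 252 to 281 alternative 3′ and 260 to 280 alternative 5′ sites.

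The 51 nt exon of Nrp2, a co-receptor for semaphorins and VEGF, was the only one of the 6 named gains at its highest of all libraries. It had 67.4, 59.1 and 60.1 PSI in DMSO, 87.5 PSI with BTBS00065 from 184 reads, and at most 76.0 PSI in the 30 other compound libraries. It lies at chr1:62859108-62859158 in mm9 and is coding in GENCODE vM21. In Fnip2, which binds the tumour suppressor folliculin, an in-frame coding exon of 90 nt went from 65.6, 62.2 and 53.3 PSI in DMSO to 90.2 PSI. In Klhl24, an adaptor protein of ubiquitin ligases, a 63 nt exon went from 54.3, 66.3 and 67.2 PSI to 88.8 PSI. For Fnip2 and Klhl24 the treated library was above every control, as the rule that chose them requires, and 5 of 29 and 2 of 30 other compound libraries were higher still.

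Ng23, Zfp558 and 1810020D17Rik (now Aamdc) completed the 6 with the largest gains. Their DMSO means were 20.5, 62.4 and 59.96 PSI, and with BTBS00065 they had 53.4, 91.3 and 88.4 PSI. The controls of Zfp558, a zinc finger gene, were far apart at 54.9, 43.9 and 88.2 PSI, with 44 reads in the treated library.

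The largest loss was in Pkd1, which encodes polycystin-1, the large membrane receptor mutated in polycystic kidney disease. A 170 nt exon at chr17:24701524-24701693 (mm9) had 94.5, 81.6 and 100 PSI in DMSO and 60.6 PSI with BTBS00065. Its length is not a multiple of 3, and the treated value rested on 53 reads. Slc22a5, the carnitine transporter, had a 155 nt exon at 93.9, 91.5 and 92.4 PSI in DMSO, from 119, 84 and 46 reads. With the compound it had 71.6 PSI from 52 reads, a gap of 20.96 PSI. In 28 other compound libraries the exon ran from 33.97 to 100 PSI with a median of 86.5, and 2 were lower. A 127 nt exon of Fbxl2, an F-box protein, had 97.1, 94.9 and 84.2 PSI in DMSO and 69.5 PSI with the compound, below all 23 other compound libraries in which it passed. Skipping of the exons in Pkd1, Slc22a5 and Fbxl2 changes the frame. Sh2d5 and Phc2, a Polycomb subunit, had in-frame exons with DMSO means of 84.9 and 87.3 PSI against 62.6 and 66.0 PSI.

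In Mett11d1 an exon and the intron beside it moved in opposite ways. The 71 nt exon at chr14:52508822-52508892 (mm9) had 78.0, 86.8 and 87.0 PSI in DMSO and 62.0 PSI with BTBS00065. The adjoining 310 nt intron at chr14:52508893-52509202 was retained at 34.9, 15.1 and 18.4 PSI in DMSO and 53.1 PSI with the compound. Among the controls, DMSO A likewise had the lowest exon inclusion and the highest retention. Of the 30 other compound libraries, 6 had lower exon inclusion and 4 had higher retention than BTBS00065. Mett11d1 had 4 called events in all. The most were in Fam116b with 6 and Pkd1 with 5, and events of 1 gene share reads and are not independent.

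More introns were called more retained than less retained. Of 88298 tested, 281 were called more retained (0.318%) and 124 less retained (0.140%), beside 166, 200 and 255 more and 233, 186 and 99 less between the controls. With 2 controls BTBS00065 had 299 to 324 more retained and 166 to 185 less. DMSO C, the shallowest control, also had more introns called more retained than less. Of 4202 introns with a DMSO mean of 5 to 95 PSI, 43.3% were higher with BTBS00065, with a median difference of -0.82 PSI, and 12 of the 30 other compound libraries had a higher share. Between controls 34.9%, 35.04% and 39.1% were higher, all below the share with BTBS00065, with median differences of -1.74, -1.76 and -1.34 PSI. The introns called more retained had a median length of 524 nt and those called less retained 374 nt, beside 1275 nt for all introns tested. Their median DMSO PSI was 7.40 and 30.19, against 0.13 for all introns tested. Lengths at like retention were not compared. Of 196 introns called more retained and outside the range of 3 passing controls, 73 were at their highest of all libraries that passed. Here too the call selects for high values, and the count over all introns tested was not taken.

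Among the introns called less retained, a 1046 nt intron of Znrf3, a ubiquitin ligase that removes Wnt receptors, had 78.1, 84.4 and 94.1 PSI in DMSO and 57.5 PSI with BTBS00065, from 89 reads. It lies at chr11:5179765-5180810 in mm9, and the treated library lay under all controls, as the rule that chose it requires. 2810410L24Rik, Nbeal2 and Bsg, the cell surface glycoprotein basigin, had DMSO means of 52.0, 33.3 and 71.3 PSI against 12.5, 1.20 and 41.5 PSI. Nbeal2 and Bsg had wide controls, with SDs of 20.8 and 24.96 PSI.

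Apbb3, whose protein binds the amyloid precursor protein, had an 888 nt intron at 15.1, 23.5 and 21.4 PSI in DMSO and 50.9 PSI with BTBS00065, from 40 reads. Kdm4b, a histone demethylase, had a 114 nt intron at 18.2, 32.1 and 10.3 PSI in DMSO and 48.0 PSI with the compound. Map3k11, a kinase upstream of JNK, and Zfp160, a zinc finger gene, had DMSO means of 64.0 and 22.7 PSI against 92.7 and 50.0 PSI, on 32 and 18 reads and with control SDs of 23.2 and 20.2 PSI. These named introns rested on few reads, and the Zfp160 call was lost without DMSO replicate 3.

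At alternative 3′ sites 221 of 14002 events were called in either direction (1.58%), beside 241, 229 and 220 between controls, and at alternative 5′ sites 233 of 10118 (2.30%), beside 232, 237 and 184. Set against 2 controls, as those comparisons were, BTBS00065 gave 252 to 281 events at 3′ sites and 260 to 280 at 5′ sites, more than any comparison between controls. The largest difference of any named event was nevertheless at a 5′ site, in Rad9, now named Rad9a. Its protein is a subunit of the clamp that is loaded onto damaged DNA and starts checkpoint signalling. The donor that shortens an exon of 110 nt by 4 nt was used at 0.0, 0.0 and 1.18 PSI in DMSO A, B and C, from 152, 137 and 77 reads, and at 54.1 PSI with BTBS00065, from 59 reads. No other compound library reached that level: it ran from 0.0 to 36.2 PSI in 29 libraries, with a median of 0.0.

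The 2 Rad9a products are printed to show what the shift in donor removes. The exon lies at chr19:4197671-4197780 on the minus strand in GRCm38 and is coding in GENCODE vM21. Capitals mark the 4 bases that are kept only with the donor used in DMSO, and the last 12 bases are those of the next exon.
Rad9a, donor used in DMSO: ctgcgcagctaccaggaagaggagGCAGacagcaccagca
Rad9a, donor 4 nt upstream: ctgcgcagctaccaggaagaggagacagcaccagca
Because 4 is not a multiple of 3, the shorter product has a shifted reading frame after this exon. The RPKM of Rad9a, a gene level in reads scaled to transcript length and library size, was 17.9 in DMSO and 10.0 with BTBS00065, a log2 ratio of -0.80.

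Other named donors also lay outside the range of the controls, as the rule that chose them requires. The distal donor of Tmem218, a membrane protein of the cilium, had 94.4, 89.0 and 90.6 PSI in DMSO, 54.9 PSI with BTBS00065 and at least 66.2 PSI in the 30 other compound libraries. A donor of Eif4enif1, the shuttle protein of the cap-binding factor eIF4E, had 28.5, 35.6 and 47.2 PSI in DMSO and 75.8 PSI with the compound. Mocs1, an enzyme of molybdenum cofactor synthesis, and Zfp26 had DMSO means of 47.9 and 46.9 PSI for a donor that had 80.6 and 76.0 PSI with the compound.

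At 3′ sites the largest gains and losses were in 5 genes. Cinp, which binds the cyclin-dependent kinase Cdk2, had an acceptor at 92.1, 84.5 and 96.6 PSI in DMSO and 61.4 PSI with BTBS00065, below all 27 other compound libraries. An acceptor of Rad54b, a motor protein of homologous recombination, had 27.3, 32.8 and 18.8 PSI in DMSO and 51.8 PSI with the compound, above all 26 other libraries. Chkb, a choline kinase, had 63.8, 54.1 and 84.8 PSI in DMSO and 94.4 PSI with the compound for its more frequent acceptor. Ecsit and Cox18, both involved in assembly of mitochondrial respiratory complexes, had acceptors with DMSO means of 32.3 and 26.7 PSI against 58.3 and 52.1 PSI. That the treated library lay outside the range of the controls in all 5 genes follows from the rule that chose them.

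**Figure D3:**
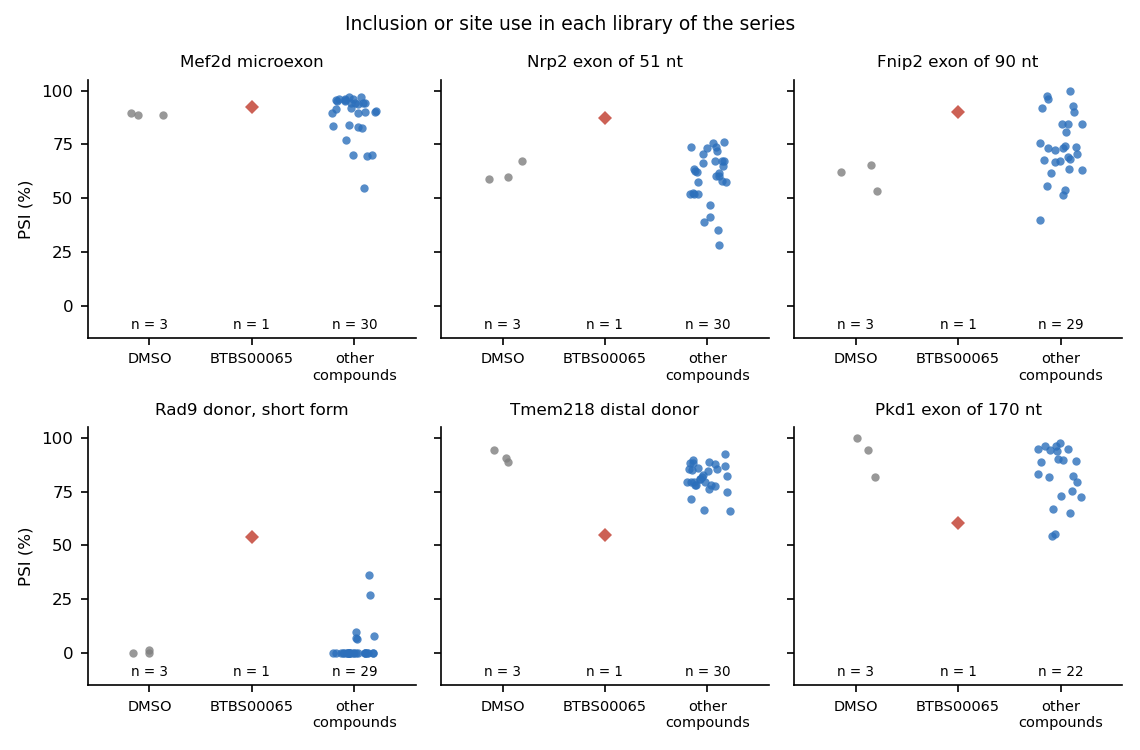
PSI of 6 named events in the DMSO libraries (grey), the BTBS00065 library (red diamond) and the libraries of the other compounds in which the event passed (blue; n under each column), with points spread sideways for legibility. The Nrp2 exon, the short Rad9 donor and the Tmem218 donor have the red diamond beyond every other library, whereas the Mef2d microexon, the Fnip2 exon and the Pkd1 exon lie within the values of the other compounds.

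Gene expression was given by 1 merged RPKM value per condition, so there was no spread between DMSO libraries and no test. In bulk RNA, fewer cells that express a gene and less of its RNA per cell cannot be told apart. Ratios are log2 of RPKM + 0.5, which understates the change of low genes, and a gene was called past 2-fold with over 5 RPKM in either condition. Of 9822 genes tested, 220 were called higher with BTBS00065 (2.24%) and 129 lower (1.31%). The median gene had a log2 ratio of -0.152, and after centring on it 313 genes were higher and 77 lower. Among the 27 compounds, BTBS00065 had the 11th largest number of genes called higher and the 14th largest number called lower. Of the called genes, 66 of those higher were at their highest of all 28 conditions and 29 of those lower at their lowest. Of all 9822 genes tested, 319 were at their highest and 201 at their lowest with BTBS00065. A call already selects for such genes, so these counts are a description. Protein-coding genes made up 159 of the genes called higher and 74 of those called lower. Short RNAs such as snoRNAs and microRNA precursors, which polyA+ libraries capture poorly, made up 30 and 35 of only 157 tested.

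The largest difference was in Itgb4, the integrin beta 4 chain that anchors epithelial cells to the basement membrane, which went from 0.51 to 23.3 RPKM, a log2 ratio of 4.56. In the other 26 compounds it had 0.17 to 3.37 RPKM. The gene lies at chr11:115974709-116008412 on the plus strand of GRCm38. Npy, a neuropeptide of sympathetic neurons, had 8.0 RPKM in DMSO and 52.0 RPKM with BTBS00065 (log2 ratio 2.63), and 1.89 to 46.7 RPKM with the other compounds. Rbp7, a retinol-binding protein, had 0.51 and 7.38 RPKM (log2 ratio 2.96). Itgb4, Npy and Rbp7 were each at their highest of all conditions. Padi3, a peptidylarginine deiminase, had 0.71 and 11.8 RPKM, Tnfrsf23, a decoy receptor for the death ligand TRAIL, 1.60 and 15.2 RPKM, and Procr, the protein C receptor, 1.80 and 12.7 RPKM. These 3 were higher still with 1 or 2 other compounds. The other 6 of the 12 genes with the largest gains were the short RNAs Gm23115, Gm23156, Mir681, Gm23365, Gm23608 and Gm22195, at 0.66 to 2.26 RPKM in DMSO and 7.82 to 15.7 RPKM with BTBS00065.

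Because short RNAs filled much of these lists, the 15 protein-coding genes with the largest ratios in each direction were also taken, a rule chosen after the values were seen. Further genes called higher included Rasgrp2, an activator of Rap GTPases (1.02 to 7.67 RPKM), and Tns2, a focal adhesion protein (1.20 to 7.61 RPKM). Npnt, an integrin ligand of the extracellular matrix, went from 1.88 to 10.8 RPKM and Col18a1, a basement membrane collagen, from 0.79 to 5.06 RPKM. Apol9a (2.57 to 13.2 RPKM), which has a close copy with which it may share reads, Tns2 and Ifitm10 (1.73 to 8.73 RPKM) were at their highest of all conditions. Pla2g2e, a secreted phospholipase, Lgi1, a secreted neuronal protein, and Ndufa4l2, a mitochondrial protein, had 3.11, 1.22 and 1.46 RPKM in DMSO and 15.4, 6.89 and 7.72 RPKM with the compound. All of these genes were low in DMSO.

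Genes called lower had smaller ratios. Dkc1, the pseudouridine synthase of the snoRNPs that modify ribosomal RNA and of telomerase, had 202.31 RPKM in DMSO and 73.2 RPKM with BTBS00065 (log2 ratio -1.46), and 3 other compounds were lower. Fkbp11, a prolyl isomerase of the endoplasmic reticulum, had 48.4 and 17.4 RPKM (log2 ratio -1.45), and Asl, an enzyme of the urea cycle, 59.1 and 23.3 RPKM (log2 ratio -1.32). Bdh2, a dehydrogenase, had 10.7 and 2.88 RPKM (log2 ratio -1.72). Aim2, a sensor of DNA in the cytosol, went from 22.8 to 8.69 RPKM, Ifngr1, a chain of the interferon gamma receptor, from 10.3 to 3.47 RPKM, and Gng8, a G protein subunit, from 19.3 to 7.52 RPKM. Aim2, Ifngr1, Gng8, Prelid2, Hist1h2bc, Zfp560 and RP23-49H16.1 were at their lowest of all conditions. Hist1h2bc is one of many near-identical histone H2B genes, so its value of 14.51 RPKM in DMSO and 4.69 with BTBS00065 is uncertain. The other protein-coding genes with large losses were RP23-99B10.2, RP24-562O19.2, RP24-159I10.2 and Riiad1, with log2 ratios of -3.14, -1.73, -1.36 and -1.33. Of the 12 with the largest losses of any kind, 10 were short RNAs, of which Gm25053 (21.3 to 2.67 RPKM) and Gm25291 (11.4 to 1.55 RPKM) were at their lowest of all conditions, and 1 was the long noncoding RNA RP23-167K23.1.

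**Figure D4:**
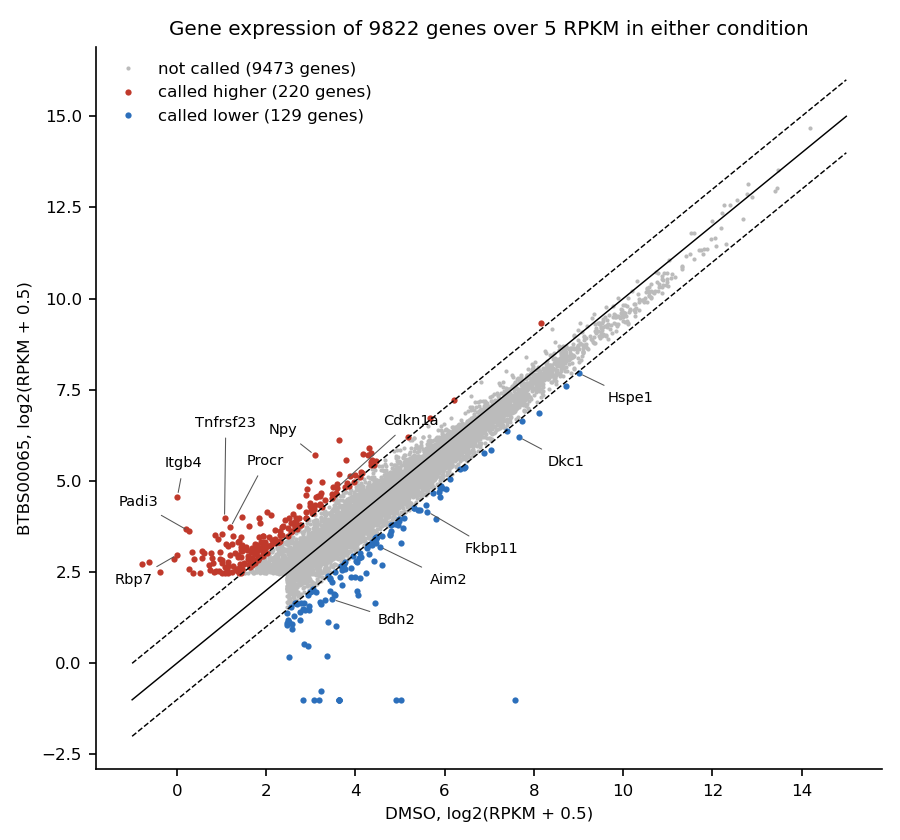
Expression of the 9822 genes over 5 RPKM in either condition, as log2(RPKM + 0.5) in DMSO (horizontal) and with BTBS00065 (vertical), 1 merged value per condition. The solid line marks equal values and the dashed lines 2-fold; 220 genes lie above and 129 below, Itgb4 is farthest above, and genes listed at 0 with BTBS00065 lie at -1.

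Lists of genes for pathways that a thymidine analogue or a splicing activator might touch held 0 to 2 called members each. A list is described by its counts and its median log2 ratio, beside the median of -0.152 over all genes. The quartiles over all genes tested were -0.37 and 0.082. Most genes thus had ratios below 0, and counts of list members below 0 are to be read beside that. Of 19 p53 targets over 5 RPKM, 2 were called higher and 0 lower, beside 2.24% and 1.31% of all genes tested, with a median of -0.13. Cdkn1a, the p21 inhibitor of cyclin-dependent kinases, went from 11.6 to 27.6 RPKM (log2 ratio 1.22) and Gdf15, a secreted stress cytokine, from 5.43 to 11.5 RPKM (log2 ratio 1.02). Bax and Mdm2, the best expressed members, had ratios of -0.33 and -0.15. Among 30 genes of pyrimidine and thymidylate metabolism none was called, 27 had ratios below 0, and the median was -0.36, or -0.21 after centring. The nucleoside diphosphate kinase Nme2, for example, had 613.12 RPKM in DMSO and 502.6 RPKM with BTBS00065.

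None of 38 genes of G1/S and replication, 27 of G2/M or 42 of DNA repair and checkpoint was called, with medians of -0.22, -0.01 and -0.08. Pcna, the sliding clamp of replication, had 353.02 and 331.71 RPKM, and Cdk1, the mitotic kinase, 667.03 and 589.84 RPKM. Rad9a had the lowest ratio of the 42 repair genes. The integrated stress response (23 genes) had no called member and a median of -0.33, with Asns, asparagine synthetase, at 548.32 RPKM in DMSO and 397.48 RPKM with BTBS00065. Among 18 genes of MAPK feedback and the immediate early response, Phlda1 alone was called, from 5.4 to 13.9 RPKM (log2 ratio 1.29), and the median was 0.05. Myc in that list had 95.6 and 49.7 RPKM, a log2 ratio of -0.94 that missed the limit.

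Of 9 interferon and innate immune genes, Psmb8, a subunit of the immunoproteasome, was called higher, from 2.67 to 6.06 RPKM, and 7 of 9 had ratios above 0 with a median of 0.44. Of 8 heat shock genes all had ratios below 0, with a median of -0.44, and Hspe1, the mitochondrial co-chaperonin, was called lower, from 514.28 to 247.92 RPKM. Centred, these medians were 0.60 and -0.28, and Hspe1 no longer passed the limit. Sterol and fatty acid synthesis (22 genes, median -0.09), oxidative and metal stress (7, median 0.24) and the DNA methylation machinery (9, median 0.12) held no called gene. Neither did neuronal differentiation (17, median 0.08) or the germline genes silenced by promoter methylation (2 of 10 over 5 RPKM, median -0.28).

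No regulator of neural and microexon splicing was called. Of the 22 over 5 RPKM, 7 had ratios above 0 and 15 below. Their median log2 ratio was -0.24, or -0.09 after centring. These are RNA values, and protein was not measured in this comparison. Srrm4 and Srrm3, which promote microexon inclusion, had 10.4 and 18.5 RPKM in DMSO and 11.5 and 22.2 RPKM with BTBS00065. Ptbp1, which represses many neural exons, had 476.41 and 389.56 RPKM. The highest ratio of the list was 0.31 in Mbnl2 and the lowest -0.73 in Elavl4. Srrm4, Srrm3 and Mbnl2 were picked from the list after their values were seen, as were the markers Pecam1, Cdh5 and Th below.

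**Figure D5:**
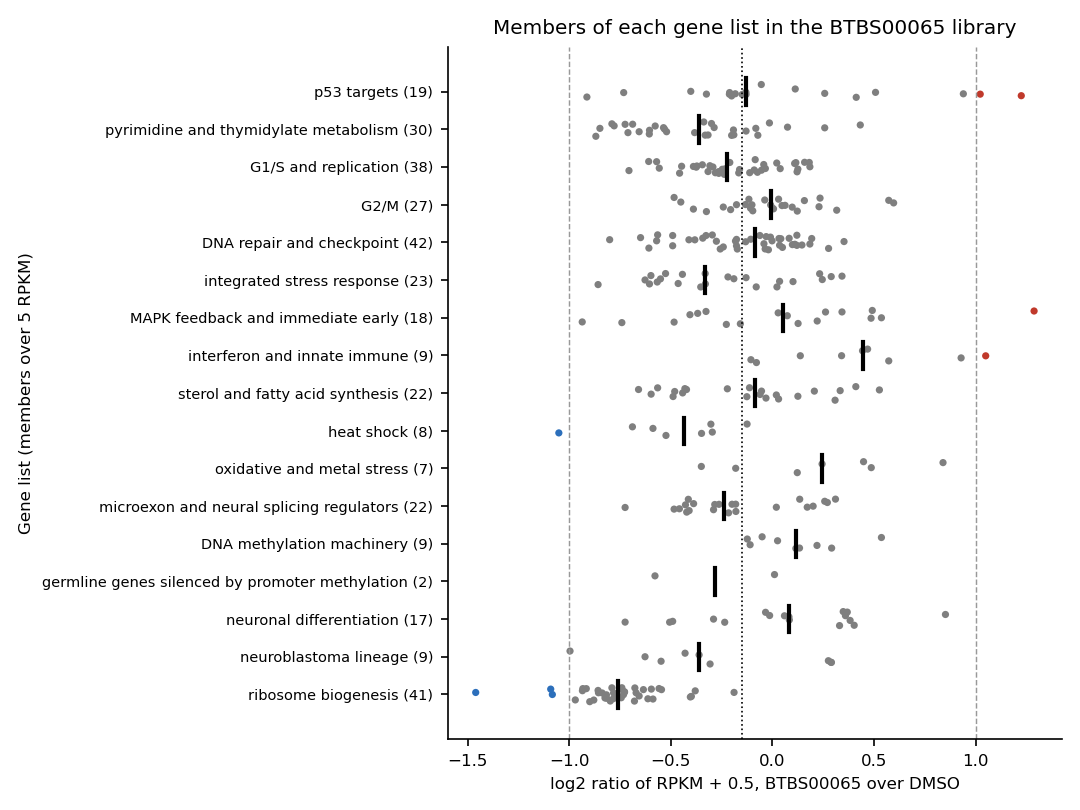
Log2 ratio of RPKM + 0.5 with BTBS00065 over DMSO for the members of each list over 5 RPKM (number in brackets); points are genes, red and blue past 2-fold (dashed lines), black bars are list medians and the dotted line is the median of all genes, -0.152. Most lists lie around the dotted line with 0 to 2 called members, and the ribosome biogenesis genes, a list written after values were seen, lie to its left.

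Markers of N2A lineage were present and markers of other cells were nearly absent. Of 11 neuroblastoma lineage genes, 9 were over 5 RPKM, among them the transcription factors Hand2 (247.51 and 183.56 RPKM) and Phox2a (78.9 and 39.3 RPKM, a log2 ratio of -0.996, just short of the limit). The 9 had a median log2 ratio of -0.36, or -0.21 after centring, with 6 of 9 below 0, none called and 1 at its lowest of all conditions. Th, the enzyme of catecholamine synthesis, had 1.57 and 2.69 RPKM. No marker of fibroblasts, astrocytes and glia, macrophages, endothelium or epithelium was over 5 RPKM. Summed over each list, they reached 0.58, 3.50, 0.66, 0.82 and 0.10 RPKM in DMSO and 1.64, 4.76, 1.01, 4.71 and 0.11 RPKM with BTBS00065. The endothelial sum was mostly Pecam1, at 0.79 and 3.01 RPKM, and Cdh5, at 0.01 and 1.35 RPKM, and their part in the genes called higher, such as Procr, was not tested.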

How the data were processed

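PolyA+ RNA of N2A cells was sequenced by the authors with a kit that does not mark strand, so overlapping antisense genes cannot be told apart. The deposited percent values (PSI) were made by the authors with vast-tools on mm9, each with a quality string, also deposited by the authors, that holds the inclusion and exclusion reads. Gene levels were deposited as RPKM, which the authors computed from Salmon on GENCODE vM21 transcripts, merged to 1 value per condition; the submitters' processing notes name Salmon 0.10.2. The authors' own comparisons were not used, and 0 value columns were left out.

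Conditions came from the labels, the dose from the study's compound list. Events needed sufficient coverage and balanced reads (for introns 15 reads or more and a balance test with p above 0.05) in the treated library and in 2 or more DMSO libraries. Where a comparison had only 2 controls, any passing control was enough. Calls took 10 PSI and a posterior above 0.95 from 2000 beta draws. Splice sites were counted per event. Genes took 2-fold on log2(RPKM + 0.5) and over 5 RPKM. Scripts ran in Python 3.11.15 with numpy 2.4.6 and pandas 2.3.3, and the calls were checked on simulated reads.

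Named were all called microexons and the RT-PCR exons; among called events outside the DMSO range with 3 passing DMSO libraries, the 6 cassette exons, 5 introns and 4 sites with the largest difference in each direction; the 12 genes with the largest ratio in each direction above 0.5 RPKM in both conditions; and the called and best expressed members of 21 lists. Lists, members and rules were chosen with earlier results of these data known. Spans and exon sequences are from GENCODE vM21 on GRCm38, and event positions are those of mm9. Exons were found by chromosome, exon length and the lengths of both flanking introns, and the Rad9a exon by gene and by intron and exon length. Some named items are not reported here.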

Additional observations from a re-analysis of the deposited data

How the results depend on the processing

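All splicing counts kept within 1.5 times of their value when 1 DMSO library was left out: 13 to 16 microexons more included and 7 to 9 less, 432 to 462 and 206 to 218 cassette exons, 299 to 324 and 166 to 185 introns, 252 to 281 alternative 3′ sites and 260 to 280 alternative 5′ sites. At 15 PSI the counts fell to 4 and 2 microexons, 116 and 62 cassette exons, 135 and 68 introns, 87 alternative 3′ and 100 alternative 5′ sites. Stricter coverage left 162 and 59 introns, and a posterior above 0.99 left 123 and 47 introns, 142 alternative 3′ and 151 alternative 5′ sites. Without the balance filter 20 microexons were more included, and 460 introns were more and 276 less retained. Of microexons of up to 15 nt, 6 were more included. Genes over 1 RPKM gave 710 higher and 280 lower, genes over 10 RPKM 104 higher, and a limit of 1.5-fold 562 and 921. Genes called lower numbered 77 after centring, 67 against the median of the other 26 compounds and 74 among protein-coding genes only, a setting added after seeing the data. Gm23092 changed sign against that median, to a log2 ratio of 4.95. The cause of these differences was not tested beyond what each setting leaves out. Of 1445 recomputed values of single events and genes, 1367 stayed on their side of the limit, 60 were lost, 17 gained and 1 reversed. No paired analysis was possible because BTBS00065 had 1 library and each condition 1 merged RPKM value. Depth limits single events: the named introns rested on 18 to 89 reads and the named splice sites on as few as 25.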

Other observations

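The fall of Dkc1 led to a list of 41 genes of ribosome biogenesis, written after the value of Dkc1 was seen, so its direction is a description and no independent evidence, and the members named here were picked after their values were seen. Ribosome biogenesis takes place in the nucleolus, where RNA polymerase I transcribes ribosomal RNA and snoRNPs modify it. All 41 genes were over 5 RPKM, all 41 had log2 ratios below 0, and the median was -0.76, or -0.61 after centring on the median gene. Most of all genes tested also had ratios below 0, with quartiles of -0.37 and 0.082. By the 2-fold limit 3 were called lower, beside 1.31% of all genes tested, and 1 of the 3 is the gene that prompted the list: Dkc1, Nle1 (23.6 to 10.8 RPKM) and Ddx21, a nucleolar helicase (212.61 to 100.11 RPKM). After centring, Nle1 and Ddx21 no longer passed the limit, and Dkc1 alone stayed called. The abundant nucleolar proteins had smaller ratios, with Npm1 at 5040.5 RPKM in DMSO and 2914.54 RPKM with BTBS00065, Ncl at 1231.82 and 735.47 RPKM, and the snoRNP proteins Nop58 and Nop56 at 517.5 and 479.22 RPKM in DMSO and 309.39 and 271.88 RPKM with the compound. Fbl, the methyltransferase of the same snoRNPs, had 203.53 and 138.13 RPKM. The catalytic subunits of RNA polymerase I, Polr1a and Polr1b, had log2 ratios of -0.67 and -0.86. The smallest ratio in size was -0.19 in Imp3, and 2 of the 41 genes were at their lowest of all conditions. Myc, which is known to drive this gene group, had a log2 ratio of -0.94, and its part in these ratios was not tested. With 1 merged value per condition, none of these ratios has a spread between replicates.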
